A study of Arabidopsis thaliana with 8 samples.

Results

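Small RNA from phloem exudates of Arabidopsis thaliana seedlings was examined here at the precursors of one conserved miRNA family, MIR169. The members are the loci that the deposited table names as MIR169 precursors and that hold at least 1 count over the 8 libraries. They number 8 of the 14 MIR169 precursors listed, among 325 miRNA precursors and 20347 loci in all, and the member nearest the limit had 2 counts while the 6 precursors outside it had 0. The choice used the counts summed over all libraries and not the contrast between the iron treatments. The exudates came from wild-type Col-0 plants grown for 11 days on half-strength MS medium with iron and then kept for 3 days on medium without iron (−Fe, 4 biological replicates) or on fresh medium with iron (+Fe, 4 biological replicates). Each replicate pooled the EDTA-collected exudate of many rosettes, so the libraries hold what left the cut hypocotyls, and small RNA loci give no marker transcripts by which the phloem label could be checked.

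MIR169 hairpins are processed by a Dicer-like protein into mature miR169, which pairs with the transcripts of NF-YA genes and lowers them. NF-YA proteins are the DNA-reading subunits of NF-Y, a trimeric factor that binds the CCAAT box of promoters. In Arabidopsis, miR169 is known to fall under nitrogen starvation, and its regulation of NF-YA5 bears on drought tolerance. The study's introduction cites an early report that miR169 rose under iron deficiency, which later work did not reproduce. In the related crop rapeseed, miR169 has been found in phloem sap. The paralogs are lettered a to n and are grouped here by letter, as the mature sequences are grouped in miRBase: a, b and c, d to g, and h to n. Hairpins of a class are grouped by their mature sequence, so mature reads may not tell them apart. The classes differ by few bases, so reads of near-identical paralogs may also be shared between classes. The division of counts among paralogs is therefore less certain than the family total.

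The 8 libraries held between 10347644 and 14116739 counts. Levels are given as raw counts or as CPM, the counts per 1000000 counts of the library. Where no read was counted, up to 3 could have been missed by chance, or 0.213 to 0.290 CPM depending on the library. Such limits and the intervals on shares cover counting error only, since PCR copies of a molecule were not told apart by identifiers. Detection was lowest in +Fe replicate 4. There, 11269 loci and 168 miRNA precursors had a count, against 12117 to 16201 loci and 185 to 226 precursors in the other libraries. The next lowest was +Fe replicate 2, with 12117 loci and 185 precursors. Results that rest on +Fe replicate 4 are given with and without it.

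The MIR169 family held 2615 counts over the 8 libraries, which is 0.163% of the counts at miRNA precursors, and ranked 31 of 214 miRNA families by counts. Most of it came from 3 hairpins, as MIR169b with 974 counts, MIR169a with 600 and MIR169e with 588 together made up 82.7%. MIR169i followed with 219 counts, MIR169f with 115 and MIR169l with 111. MIR169g held 6 counts and MIR169d 2. MIR169c, MIR169h, MIR169j, MIR169k, MIR169m and MIR169n had no count in any library. Reads within a class may be shared, so this does not show that these hairpins gave no small RNA. Only MIR169a, MIR169b and MIR169e were counted in all 8 libraries, a criterion that 143 of the 325 listed precursors met.

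Per length, the order of the levels was led by MIR169b, the 181-nt hairpin on chromosome 5 from 8527469 to 8527649 (AT5G24825). It had 52.1 ± 26.5 CPM per kb in −Fe exudates and 62.9 ± 21.4 in +Fe exudates (SD, n = 4 each). MIR169e, on chromosome 1 from 20041518 to 20041734 (AT1G53687), had 27.6 ± 18.6 CPM per kb in −Fe and 30.005 ± 32.3 in +Fe exudates. MIR169a, on chromosome 3 from 4358993 to 4359218 (AT3G13405), had 20.01 ± 8.79 CPM per kb in −Fe and 37.0 ± 23.2 in +Fe exudates. The levels of MIR169a and MIR169e thus lay within each other's spread. Their order in +Fe exudates rested on replicate 4, without which MIR169e had 39.9 ± 31.4 and MIR169a 26.5 ± 11.99 CPM per kb (SD, n = 3), the same order as in −Fe exudates. MIR169i (chromosome 3 from 9871959 to 9872164, AT3G26812) came next, with 5.65 ± 2.66 CPM per kb in −Fe and 17.0 ± 18.4 in +Fe exudates. MIR169f (chromosome 3 from 4805683 to 4805849, AT3G14385) and MIR169l (chromosome 3 from 9875893 to 9876103, AT3G26816) could not be separated from MIR169i beyond the replicate spread. MIR169f had 4.55 ± 5.35 CPM per kb in −Fe and 8.89 ± 8.51 in +Fe exudates. MIR169l had 4.96 ± 4.24 CPM per kb in −Fe and 6.34 ± 9.30 in +Fe exudates. Coordinates are those of the deposited table, whose genome the submitters' processing notes give as TAIR10.

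Summed over the members, the counts were 301, 462, 219 and 112 in −Fe replicates 1 to 4, against 404, 556, 243 and 318 in +Fe replicates 1 to 4. In CPM this was 28.4, 36.4, 18.5 and 8.51 in −Fe exudates, and 28.6, 53.7, 18.1 and 30.4 in +Fe exudates. The lowest library was −Fe replicate 4 and the highest +Fe replicate 2, and the groups overlapped over most of their range. The means were 23.0 ± 12.1 CPM in −Fe and 32.7 ± 15.0 CPM in +Fe exudates (SD, n = 4 each), and the difference of mean log2 CPM was -0.59. Without −Fe replicate 4 that difference was -0.18, and without +Fe replicate 2 it was -0.32. It also depended on the scale. With the scaling factors of the edgeR fit, of which −Fe replicate 4 had the lowest (0.743), it was -0.39. Relative to the counts at miRNA precursors it was -0.40. A sum over chosen members was not tested. CPM is a share of the counts of a library, so the absolute amount of MIR169 small RNA in the exudates was not measured. In pooled exudates, fewer cells giving MIR169 small RNA and less of it per cell cannot be told apart.

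MIR169b had 144, 162, 97 and 42 counts in −Fe replicates 1 to 4, against 128, 151, 96 and 154 in +Fe replicates 1 to 4. Apart from the low value in −Fe replicate 4, the ranges were alike, with 9.44 ± 4.80 CPM in −Fe and 11.4 ± 3.86 CPM in +Fe exudates (SD, n = 4 each). Its log2 fold change (−Fe over +Fe) was -0.11 with a standard error of 0.40 and a 95% interval from -0.94 to 0.71 (edgeR's quasi-likelihood test, Benjamini-Hochberg adjusted p = 0.998 over all loci tested). A two-sided exact permutation test of the mean CPM, which cannot go below 0.0286 with 4 libraries against 4, gave p = 0.486. The sign turned without −Fe replicate 4 (0.14) and without +Fe replicate 4 (0.0026).

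MIR169a had 53, 89, 44 and 31 counts in −Fe replicates 1 to 4, against 99, 83, 39 and 162 in +Fe replicates 1 to 4. Its highest library was +Fe replicate 4, at 15.5 CPM, while the other 3 +Fe libraries lay between 2.91 and 8.02 CPM and overlapped the −Fe range of 2.35 to 7.02 CPM. The log2 fold change was -0.73 with a standard error of 0.54 (edgeR, adjusted p = 0.922; exact permutation test, p = 0.229). Without +Fe replicate 4 it was -0.31.

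MIR169e, a d to g class hairpin, had 87, 131, 47 and 19 counts in −Fe replicates 1 to 4, against 94, 168, 41 and 1 in +Fe replicates 1 to 4. The −Fe range, 1.44 to 10.3 CPM, lay inside the +Fe range of 0.0957 to 16.2 CPM, and the 2 lowest libraries were the replicates numbered 4. The log2 fold change was -0.02 with a standard error of 0.75 (edgeR, adjusted p = 0.998), and its 95% interval ran from -1.55 to 1.52. Its sign depended on the libraries included: it was 0.83 without +Fe replicate 2 and -0.42 without +Fe replicate 4.

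**Figure D1:**
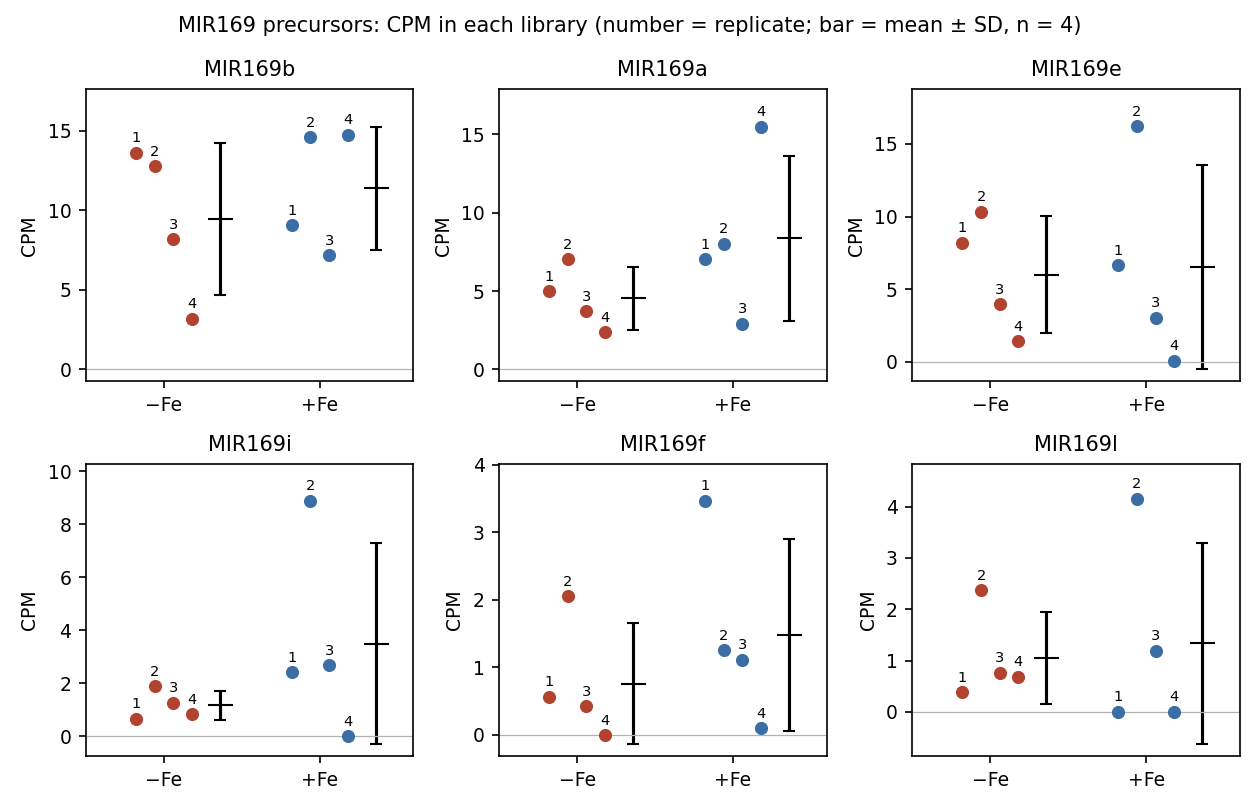
CPM (vertical axis) of the 6 MIR169 precursors with at least 10 counts, for −Fe (left, red) and +Fe libraries (right, blue). Each point is 1 library with its replicate number, and the bar beside each group is the mean ± SD (n = 4). The groups overlap at every precursor, and +Fe replicate 4 is the highest +Fe library at MIR169a and MIR169b but the lowest or joint lowest at MIR169e, MIR169i, MIR169f and MIR169l.

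MIR169i had 7, 24, 15 and 11 counts in −Fe replicates 1 to 4, against 34, 92, 36 and 0 in +Fe replicates 1 to 4. In CPM, 3 of the +Fe libraries (2.41, 8.89 and 2.68) lay above all 4 −Fe libraries (0.661 to 1.89), and the other was at 0. Its log2 fold change of -1.40 with a standard error of 1.15 did not pass the test (edgeR, adjusted p = 0.969; exact permutation test, p = 0.286). Single libraries moved it widely, since it was -0.47 without +Fe replicate 2 and -0.67 with the replicate number as a block. Without +Fe replicate 4 it was -1.81, with an adjusted p of 0.770 by the same edgeR test, the only fit in which any member had an unadjusted p under 0.05. Over all the alternatives its adjusted p ranged from 0.770 to 1.00.

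MIR169f had 6, 26, 5 and 0 counts in −Fe replicates 1 to 4, against 49, 13, 15 and 1 in +Fe replicates 1 to 4. MIR169l had 4, 30, 9 and 9 counts in −Fe replicates 1 to 4, against 0, 43, 16 and 0 in +Fe replicates 1 to 4. In each hairpin and condition, a single library carried more counts than the rest of its group together. Their log2 fold changes were -1.06 with a standard error of 1.59 and -0.17 with a standard error of 1.64 (edgeR, each with an adjusted p of 0.998). That of MIR169f was -0.03 without +Fe replicate 1, -2.04 without −Fe replicate 2 and -1.45 without +Fe replicate 4. That of MIR169l was 1.53 without +Fe replicate 2, -0.71 without −Fe replicate 2 and -0.57 without +Fe replicate 4.

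MIR169g (chromosome 4 from 11482879 to 11483257, AT4G21595) had 2 counts, in −Fe replicate 3, against 4 counts, in +Fe replicate 2. MIR169d (chromosome 1 from 20039462 to 20039615, AT1G53683) had no count in −Fe exudates, against 2 counts, in +Fe replicate 2. Neither reached the minimum of 10 counts for the test. MIR169d lies 1902 nt from MIR169e on chromosome 1, so the member with the fewest counts neighbours one with many.

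Across the 17722 loci tested by edgeR, 0% met the call (an adjusted p under 0.1 and a change of 0.5 or more on the log2 scale), and 6.69% had an unadjusted p under 0.05. Of the 8 MIR169 members, 6 were tested, 0 were called and 0 had an unadjusted p under 0.05. DESeq2, the study's tool, called 0.192% of loci and 0 of the 6 members, and 0 of them had an unadjusted p under 0.05 by it. The 4 −Fe and 4 +Fe CPM values did not overlap at 2.96% of loci and at 0 of the 6 members. All 6 fold changes were below 0 in this fit, with a median of -0.45 against 0.07 over all loci tested, where 46.6% were below 0, as were 45.5% of the 233 miRNA precursors tested. With the replicate number as a block 4 of the 6 were below 0, and the signs of MIR169b, MIR169e and MIR169l turned when single libraries were left out.

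**Figure D2:**
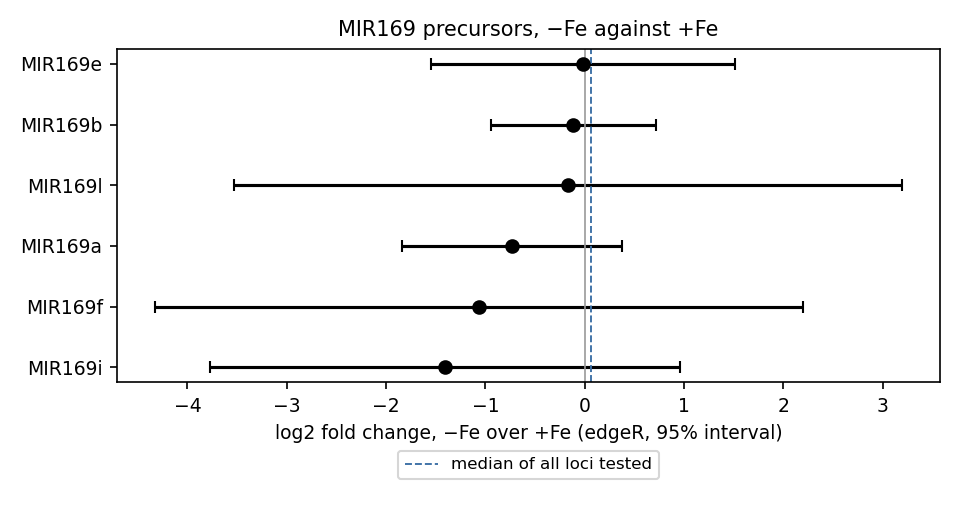
log2 fold change of −Fe over +Fe (horizontal axis) from edgeR for the 6 tested MIR169 precursors, with 95% intervals. The solid line marks 0 and the dashed line the median of all loci tested, 0.07. Every interval crosses 0, and the narrowest, at MIR169b, runs from -0.94 to 0.71.

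The spread between replicates was much wider than counting error. For MIR169b, the coefficient of variation of CPM was 50.9% in −Fe and 33.9% in +Fe exudates, where counting alone gives 9.48% and 8.70%. For MIR169e it was 67.2% in −Fe and 107.8% in +Fe exudates, where counting alone gives 11.9% and 11.5%. For comparison, the median coefficient of variation of the 163 miRNA precursors with at least 100 counts was 37.4% in −Fe and 46.0% in +Fe exudates.

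The make-up of the family set 1 library apart. The d to g class (nearly all MIR169e and MIR169f) took 30.9%, 33.98%, 24.7% and 17.0% of MIR169 counts in −Fe replicates 1 to 4, against 35.4%, 33.6%, 23.0% and 0.629% in +Fe replicates 1 to 4. The h to n class (MIR169i and MIR169l) took 3.65%, 11.7%, 11.0% and 17.9% in −Fe replicates 1 to 4, against 8.42%, 24.3%, 21.4% and 0% in +Fe replicates 1 to 4. The other 7 libraries thus held all 4 classes, while +Fe replicate 4 held almost only MIR169a and MIR169b. Their joint share was 62.3% ± 5.36 in −Fe exudates (SD, n = 4) and 51.3% ± 7.97 in +Fe replicates 1 to 3 (SD, n = 3), but 99.4% in +Fe replicate 4.

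In +Fe replicate 4, MIR169a had 162 counts and MIR169b 154, whereas MIR169e and MIR169f had 1 count each and MIR169i and MIR169l 0. The exact Clopper-Pearson 95% interval of the d to g share in this library was 0.0763% to 2.25%, below that of every other library, of which the lowest began at 10.5%. A count of 0 in the h to n class allowed a share of up to 0.943% of its 318 MIR169 counts by the limit of 3 counts, and up to 1.15% by the exact Clopper-Pearson interval. This library thus had almost no counts of these hairpins, at a depth at which all other libraries showed MIR169e and MIR169i. MIR169f also had 0 counts in −Fe replicate 4, and MIR169l in +Fe replicate 1. The part that the lower number of detected loci in +Fe replicate 4 had in this was not tested.

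**Figure D3:**
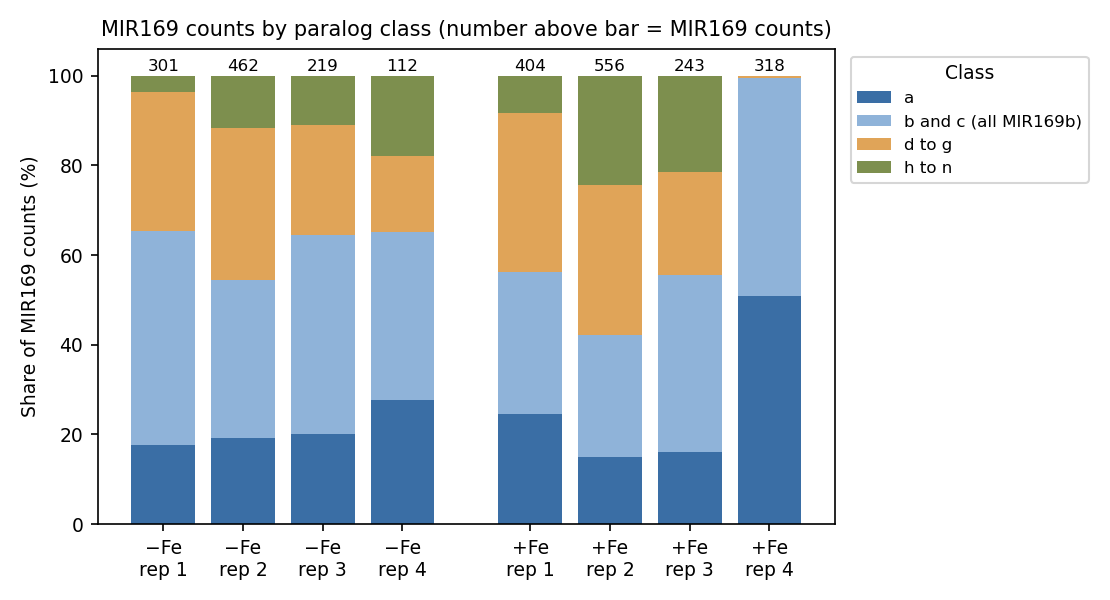
Share of the MIR169 counts of each library (vertical axis, %) in the paralog classes a, b and c, d to g, and h to n, for −Fe replicates 1 to 4 (left) and +Fe replicates 1 to 4 (right). The number above each bar is the MIR169 counts of that library. In +Fe replicate 4 the a, b and c classes fill 99.4% of the bar, against 42.1% to 65.4% in the other libraries.

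Other precursors also lacked counts in that library, and how many did so depended on the minimum set. MIR169f, MIR169i and MIR169l held fewer than 500 counts in all, so they enter only at the lower minimum. Among the 91 precursors with at least 500 counts in all, only MIR169e and MIR170 had at most 1 count in +Fe replicate 4, and none did in any other library. Among the 163 precursors with at least 100 counts, 19 had at most 1 count in +Fe replicate 4, among them MIR169e, MIR169f, MIR169i and MIR169l, against 1 to 12 in the other libraries. On the log2(CPM + 1) scale, the difference of +Fe replicate 4 from the median of the other 7 libraries was -2.81 for MIR169e, the lowest but 2 of the 163, and 1.46 for MIR169a. These counts were made after the values were seen and were not tested.

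In the other 7 libraries the level of MIR169e followed that of MIR169a and MIR169b. Per 100 counts of MIR169a and MIR169b together, MIR169e had 44.2, 52.2, 33.3 and 26.0 counts in −Fe replicates 1 to 4, against 41.4, 71.8, 30.4 and 0.316 in +Fe replicates 1 to 4. The correlation of log2(CPM + 1) across the 8 libraries was weak (Pearson r = 0.18, Spearman rho = 0.33). Without +Fe replicate 4, r was 0.98 and the 7 libraries had the same order at both (rho = 1). Single pairs showed the same, since r between MIR169e and MIR169a was -0.07 over 8 libraries and 0.94 over these 7. The order of the 7 libraries is that of CPM on library totals, and it changes with the scaling factors of the edgeR fit. The hairpins share the library and its depth, and may share reads, so no test was made of these correlations.

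**Figure D4:**
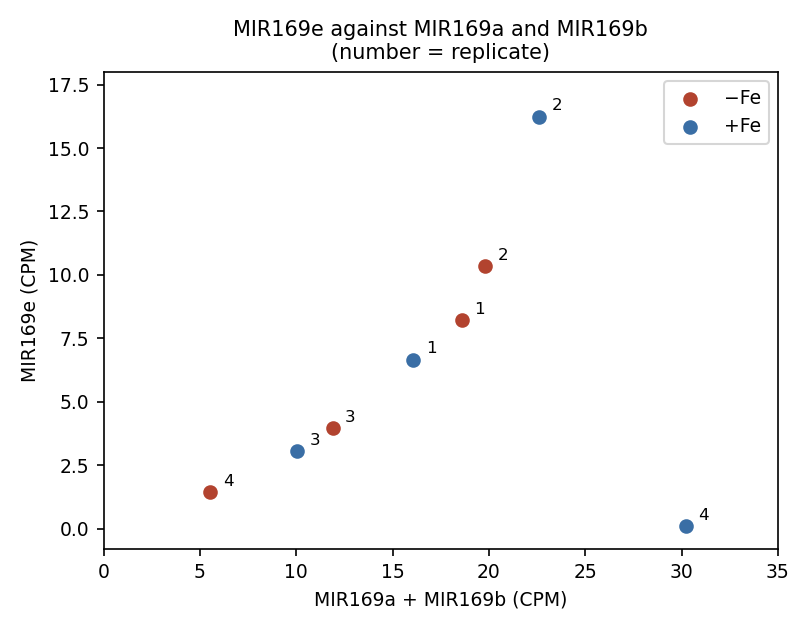
CPM of MIR169e (vertical axis) against the summed CPM of MIR169a and MIR169b (horizontal axis), with 1 point per library and its replicate number (−Fe red, +Fe blue). The other 7 libraries rise together, and +Fe replicate 4 lies apart with 30.2 CPM at MIR169a and MIR169b and 0.0957 CPM at MIR169e.

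The number of members with a count was 6, 6, 7 and 5 in −Fe replicates 1 to 4, against 5, 8, 6 and 4 in +Fe replicates 1 to 4. The only library with all 8 was +Fe replicate 2, which also had the highest MIR169 level, and the groups overlapped. The difference of the means was 0.25 members, and -0.333 without +Fe replicate 4.

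MIR169i to MIR169n form an array of 6 hairpins in 6795 nt of chromosome 3, in which i and j, k and l, and m and n lie 156 to 167 nt apart. Counts were assigned to only 2 of the 6, to MIR169i in the i and j pair and to MIR169l in the k and l pair. All of them belong to the h to n class, whose mature reads may not tell the hairpins apart. Whether the placement of shared reads left MIR169j, MIR169k, MIR169m and MIR169n without counts was not tested. The small RNA locus that lies between MIR169j and MIR169k held 603 counts, with 111 of them in +Fe replicate 4, where MIR169i and MIR169l had none. This locus and the hairpins beside it therefore did not share their pattern across libraries: in +Fe replicate 2, where MIR169i and MIR169l had their highest counts, it had 4.

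**Figure D5:**
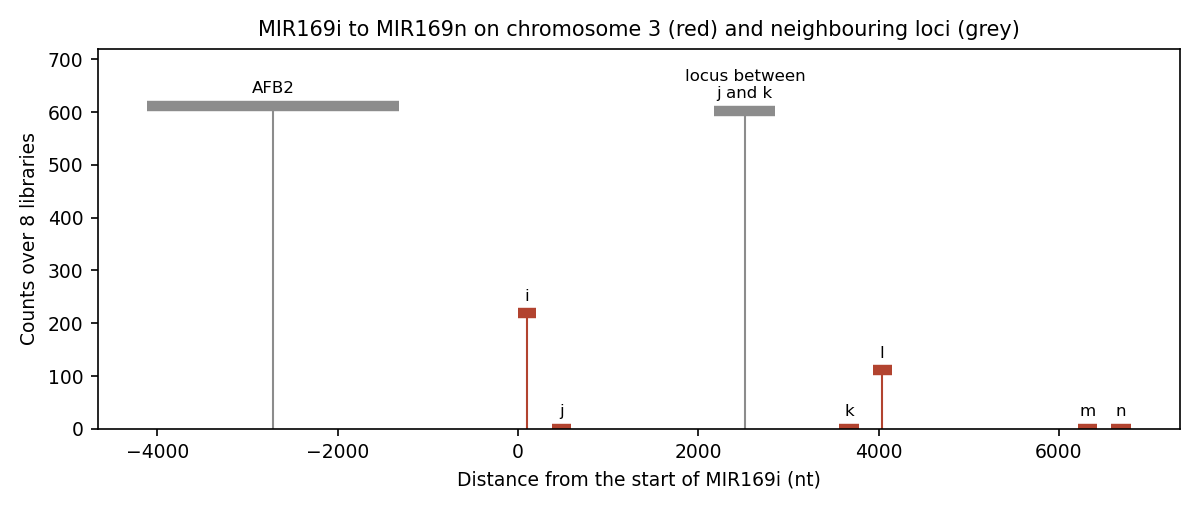
Counts over the 8 libraries (vertical axis) at the hairpins MIR169i to MIR169n (red) and at the neighbouring loci AFB2 and the locus between MIR169j and MIR169k (grey), by distance from the start of MIR169i (horizontal axis, nt). The horizontal bar of each feature spans its length, and loci that coincide with a hairpin are not drawn. MIR169i (219 counts) and MIR169l (111) stand out from j, k, m and n, which have 0. How reads shared by these hairpins were placed is not known.

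Each member was overlapped by another small RNA locus of the table, and for 7 of the 8 that locus had identical counts in every library, so it adds no separate measurement. The exception was MIR169a, whose surrounding locus spans 785 nt on chromosome 3, from 4358634 to 4359418, and held 632 counts, 32 more than the hairpin. These 32 counts fell as 16, 3, 0 and 13 in −Fe replicates 1 to 4, against 0 in each +Fe library. The 2 groups overlapped because −Fe replicate 3 had none, and since the counts were noticed in the table they were not tested.

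Small RNA from the targets of miR169 was not measured here, because reads were counted only within the listed loci. None of the 8 NF-YA genes known as miR169 targets (NF-YA1, NF-YA2, NF-YA3, NF-YA5, NF-YA6, NF-YA8, NF-YA9 and NF-YA10), nor NF-YA4 and NF-YA7, which are not known as targets, overlapped a locus of the table, so 0 could be tested. Of all 27444 protein-coding genes on the 5 chromosomes, 37.6% overlapped a locus. The nearest locus to a target gene lay 22 nt from NF-YA2 and held 154 counts. Small RNA counts say nothing of the NF-YA transcript levels.

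MIR169 was set beside 4 other families, of which MIR398 held more counts and the other 3 fewer. MIR395, whose miRNA regulates sulfate assimilation, had 26.8 ± 39.2 CPM in −Fe and 19.0 ± 11.6 CPM in +Fe exudates (SD, n = 4 each), with all 6 of its hairpins counted in every library. Its −Fe mean was carried by replicate 2, at 85.4 CPM, while the other 3 −Fe libraries (10.5, 8.01 and 3.11 CPM) lay below all 4 +Fe libraries (11.3 to 36.3 CPM). MIR399, a phosphate-starvation family, had 0.954 ± 0.602 CPM in −Fe and 2.79 ± 3.41 CPM in +Fe exudates, with 4 of 6 hairpins counted and none in every library. MIR171, which regulates SCARECROW-like genes, had 12.1 ± 2.76 CPM in −Fe and 8.46 ± 2.65 CPM in +Fe exudates. In +Fe replicate 4, MIR395 still had 11.3 CPM and MIR171 4.98 CPM, while MIR399 had none. MIR398, a copper-responsive family also known from rapeseed phloem sap, had 302 to 826 CPM in −Fe and 351 to 751 CPM in +Fe libraries, so it was far above MIR169 in every library.

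The precursors whose level across the 8 libraries was most like the summed MIR169 level, among 165 others with at least 80 counts, were MIR396a (Pearson r = 0.89, Spearman rho = 0.90), MIR5645f (0.85 and 0.81), MIR848 (0.85 and 0.88), MIR5635c (0.85 and 0.67) and MIR156a (0.84 and 0.95), by log2(CPM + 1). MIR396a, whose miRNA regulates growth-regulating factor genes, had 99.2, 161, 103 and 78.6 CPM in −Fe replicates 1 to 4, against 119, 164, 107 and 146 CPM in +Fe replicates 1 to 4. As for MIR169, by CPM on library totals replicate 2 was the highest library of each condition and −Fe replicate 4 the lowest of all. For MIR396a the rank of −Fe replicate 4 depends on that scale, since its scaling factor in the edgeR fit was the lowest (0.743). These libraries share depth and composition across all loci, so the likeness is a description.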

How the data were processed

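For 8 phloem exudate libraries, the deposited values are raw read counts per locus. The authors trimmed adapters with Cutadapt, set no limit on read length, and used ShortStack for alignment and quantification. How reads with several matching loci were placed is not given in the sources used here. The column of sums over libraries was checked and not used, and 0 library columns were left unmapped. CPM used the library totals. All loci with at least 10 counts were tested with edgeR (4.0.16, limma 3.58.1, R 4.3.3), by the quasi-likelihood test with condition only and TMM factors of 0.743 to 1.17, and p-values were adjusted by Benjamini-Hochberg over all of these loci. Calls needed an adjusted p under 0.1 and a log2 fold change of 0.5 or more in size. The p-values measure the spread among these biological replicates. Standard errors were derived from the F statistic. The edgeR fit and the permutation procedure were run on simulated data as a check of the code. For edgeR, recovery of changed loci was required only at a replicate spread far below that of these data. The check therefore does not establish the power of the test here. NF-YA positions and locus tags come from the RefSeq genes of TAIR10.1.

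All members, the NF-YA genes, the 5 most similar precursors and 4 other families were named by rule, and MIR170, the locus within the MIR169i to MIR169n array and the locus around MIR169a after their values were seen. Members, lists and tests were chosen with earlier results of these data known. Alternatives were DESeq2 (1.42.0), the replicate block, other size factors and filters, exact permutation tests over the 70 splits, other scales, and leaving out libraries. Omitting both replicates numbered 4, or the 20 highest loci from the scale, was chosen after seeing the data.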

Additional observations from a re-analysis of the deposited data

Results flagged for a closer look

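Among 28 groups of 4 values examined (members, sum, classes and detection in each condition), 3 had a library whose gap to the nearest other exceeded Dixon's 95% critical value as a share of the group's range. Chance gives about 1 in 20 for continuous values, a rate that does not apply here, because the share is 1 by construction where all libraries but 1 are at 0. The 3 are MIR169g in −Fe exudates (gap over range 1, from 2 counts in replicate 3 and 0 in the others), MIR169d in +Fe exudates (1, from 2 counts in replicate 2 and 0 in the others) and MIR169g in +Fe exudates (1, from 4 counts in replicate 2 and 0 in the others).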

How the results depend on the processing

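No MIR169 precursor was called under any alternative run, and over those alternatives the lowest adjusted p was 0.611, at MIR169a. The permutation test could call no locus here, since its p cannot go below 0.0286 and only 2.96% of loci had groups that did not overlap. The main edgeR fit called 0 of 17722 loci, so the absence of calls is not particular to MIR169. The number of MIR169 precursors with an unadjusted p under 0.05 stayed at 0 except without +Fe replicate 4, when it was 1 (MIR169i). Over the omissions it ran from 0 to 1. Of 89 refitted fold changes, 11 changed sign. With the replicate number as a block, MIR169e was 0.74 and MIR169l 1.69. Over the omissions of libraries, MIR169e ran from -0.42 to 0.83, MIR169l from -0.71 to 1.53 and MIR169b from -0.40 to 0.25, while MIR169a, MIR169f and MIR169i stayed below 0. The correlation of deviations from the group means was 0.0037 to 0.045 between −Fe and +Fe libraries of the same number. Between libraries of different numbers it was -0.033 to 0.021. Such low values over mostly low counts cannot decide whether the replicate numbers pair the libraries. Library totals in place of TMM moved the median of all loci to -0.12 and the share of loci with p under 0.05 that were higher in −Fe to 54.0%, against 0.07 and 72.6%; all 6 members stayed below 0 under both. The filterByExpr filter left 310 loci with p under 0.05, against 1186, and did not test MIR169l, and the block left 635. The difference in summed level kept its sign, between -0.88 and -0.18. The d to g share differed by 3.45 percentage points in the main analysis and by -4.07 without +Fe replicate 4. Changes inside the 95% intervals, of which the narrowest (MIR169b) ran from -0.94 to 0.71, remain possible. Changes beyond these intervals could also have gone uncalled, since the call adjusted p over all loci tested. MIR169g and MIR169d held too few counts to test.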
